A study of Mus musculus with 8 samples.

Results

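miR-296 and miR-298 are a pair of microRNA (miRNA) hairpins that lie side by side on mouse chromosome 2. The account below covers 3 mature miRNAs cut from them, mmu-miR-298-5p, mmu-miR-296-3p and mmu-miR-296-5p (mmu, for the mouse, is left out from here on), of 1978 mature miRNAs in the deposited count table. They were picked by name, with earlier results of the neonatal and adult libraries known, so the age difference of each member is a description and carries no test. Small RNA was sequenced from CD8+ T cells of the spleen, and the mice were of the inbred laboratory strain C57BL/6. The neonatal mice were 5 to 7 days old (4 libraries) and the adult mice 12 weeks old (4 libraries), and no other treatment or genetic change is named for either group. Cells were taken from spleen suspensions on magnetic beads against CD8a, a surface protein that some cells other than T cells can also carry. The labels do not say whether libraries came from single animals or pools, so the spread between libraries may be partly technical.

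A hairpin transcript is cut by Drosha and Dicer into a short duplex whose 5p or 3p arm is loaded on an Argonaute protein, where bases 2 to 8 (the seed) pair with target messenger RNAs. In the mouse, Mir296 and Mir298 belong to the imprinted Gnas domain and are known to be transcribed from the paternal chromosome, in the direction of the antisense noncoding RNA Nespas. miR-296 has been reported to act on pluripotency mRNAs such as that of Nanog in mouse embryonic stem cells and on growth factor receptor sorting in human endothelial cells. miR-298 has been reported to bind the mRNA of the protease Bace1 in mouse cells. CD8+ T cells kill infected and transformed cells, and those of neonatal mice, which derive largely from fetal progenitors, are known to respond faster than adult ones.

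All 3 members matched an entry of the RefSeq miRNA table for build GRCm38.p6, which is the mm10 assembly that the submitters name. The mature sequences are shown because they determine targeting and because all of them are rich in G and C. Capitals mark the seed.
miR-298-5p: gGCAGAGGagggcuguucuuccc
miR-296-3p: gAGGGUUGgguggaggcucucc
miR-296-5p: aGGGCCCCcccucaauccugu
The 3 seeds differ from each other, sharing at most 2 of their bases by position, and no other mature miRNA of the RefSeq table carries any of them. Each mature sequence occurs in 1 hairpin of that table, and the deposited table lists each member on 1 precursor, with whole numbers in all 8 libraries. G and C make up 65.2% of miR-298-5p, 68.2% of miR-296-3p and 66.7% of miR-296-5p, which holds a run of 7 C.

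The hairpins are shown with both mature arms in capitals, so that the arms compared below can be located.
Mir298: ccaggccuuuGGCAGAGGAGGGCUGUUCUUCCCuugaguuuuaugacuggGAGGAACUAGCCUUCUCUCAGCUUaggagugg
Mir296: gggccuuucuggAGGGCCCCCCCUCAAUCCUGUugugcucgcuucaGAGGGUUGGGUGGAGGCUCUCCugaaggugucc
Mir298 spans chr2:174267504-174267585 and Mir296 spans chr2:174267047-174267125, both on the minus strand, with 378 bases between them. GENCODE places no exon or intron of another gene over either hairpin. The nearest annotated end of Nespas, which lies on the same strand (chr2:174281237-174295436), is 13.7 kb upstream of Mir298, and the protein-coding gene Gnas lies on the opposite strand, 16.7 kb away.

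Depth ran from 1454421 to 2416060 counts per neonatal library and from 1281032 to 2606630 per adult library. Levels are given as CPM, counts scaled to depth, with TMM factors; this scaling brings libraries to a common level by a trimmed mean of their ratios, and 1 count was worth 0.358 to 0.971 CPM. The lymphocyte miRNAs fixed as a check of the cell label were miR-150-5p, both arms of miR-142a, miR-181a-5p and miR-342-3p. They were abundant, at 72937 to 75700 CPM in sum in neonatal libraries and 143488 to 210073 CPM in adult libraries. Most of this was miR-150-5p, at a mean of 54314 CPM in neonatal libraries and 140507 CPM in adult libraries. Such a list does not tell CD8+ T cells from other lymphocytes. In every pair of libraries within a group the counts differed beyond sampling noise (a chi-square of at least 19.1 per degree of freedom). Each was therefore kept as a library of its own, but this does not show that they came from separate animals.

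All 3 members were higher in neonatal than in adult CD8+ T cells, by very unequal amounts. miR-298-5p was about 10.5-fold higher, miR-296-3p about 2.35-fold and miR-296-5p about 1.71-fold. In neonatal libraries miR-298-5p stood far above both arms of miR-296, while in adult libraries the levels of all 3 overlapped. In such bulk samples, more cells carrying a miRNA and more of it per cell cannot be told apart.

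miR-298-5p, the main product of its hairpin, was read 9527 times in the 4 neonatal libraries (1823 to 2607 counts each) and 630 times in the 4 adult ones (96 to 247 each). Scaled to depth, its level was 973, 984, 1097 and 932 CPM in neonatal libraries 1 to 4, against 93.2, 88.9, 117 and 80.3 CPM in adult libraries 1 to 4. The groups lay far apart, since the lowest neonatal library was 7.94 times the highest adult one. The mean was 996 ± 70.6 CPM in neonatal libraries and 95.0 ± 15.9 CPM in adult libraries (SD, n = 4 each). edgeR's fit over all 375 miRNAs with enough counts gave a log2 fold change, neonatal over adult, of 3.39 ± 0.16 (SE). This was rank 5 of the 375 from the highest.

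miR-296-3p, the arm of Mir296 with more reads in all 4 neonatal libraries, was read 2224 times in the 4 neonatal libraries and 659 times in the 4 adult ones (82 to 224 counts each). Its levels were 218, 235, 248 and 225 CPM in neonatal libraries and 79.6, 106, 106 and 101 CPM in adult libraries. Every neonatal library was above every adult one, the lowest at 2.05 times the highest adult level. The means were 232 ± 13.0 CPM in neonatal libraries and 98.3 ± 12.7 CPM in adult libraries, and the log2 fold change was 1.23 ± 0.15 (SE), rank 66 of 375.

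miR-296-5p, the arm that carries the run of C, was read 1471 times in the 4 neonatal libraries (217 to 461 counts each) and 577 times in the 4 adult ones (95 to 224 each). This came to 116, 159, 164 and 165 CPM in neonatal libraries and to 108, 66.5, 106 and 73.8 CPM in adult libraries. Here the groups nearly met: neonatal library 1 was 1.07 times the highest adult library, while the other 3 neonatal libraries lay close together and well above. The means were 151 ± 23.5 CPM in neonatal libraries and 88.6 ± 21.6 CPM in adult libraries, with a log2 fold change of 0.77 ± 0.21 (SE), rank 101 of 375.

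**Figure D1:**
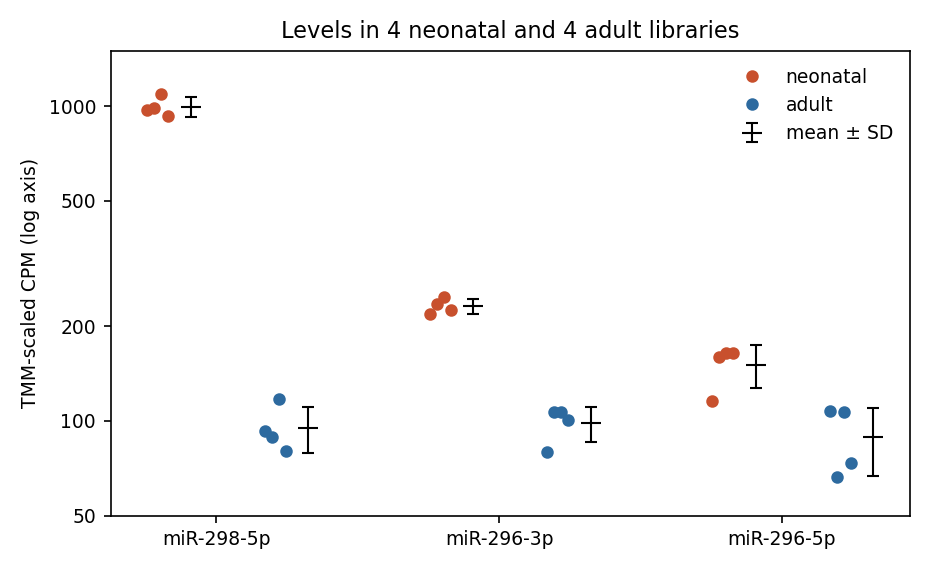
TMM-scaled CPM (log axis) of miR-298-5p, miR-296-3p and miR-296-5p in each neonatal and adult library (points), with mean ± SD of 4 libraries beside them. The neonatal points of miR-298-5p lie between 932 and 1097 CPM and its adult points between 80.3 and 117 CPM, while the groups of miR-296-5p nearly touch.

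All 3 members passed the count filter, and 3 of 3 were past an adjusted p of 0.05 as higher in the edgeR fit, against 29.1% of all 375 tested (63.2% changed in either direction). With an offset for G and C content, 2 of 3 were, against 109 of all 375 tested, and miR-296-5p was not. Likewise 3 of 3 had every neonatal library above every adult one, against 26.4% of all tested. Between libraries of the same number in the labels, the log2 difference ran from 3.22 to 3.54 for miR-298-5p, from 1.14 to 1.45 for miR-296-3p and from 0.10 to 1.26 for miR-296-5p. Since this contrast was in view when the members were picked, nothing is read from these counts.

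**Figure D2:**
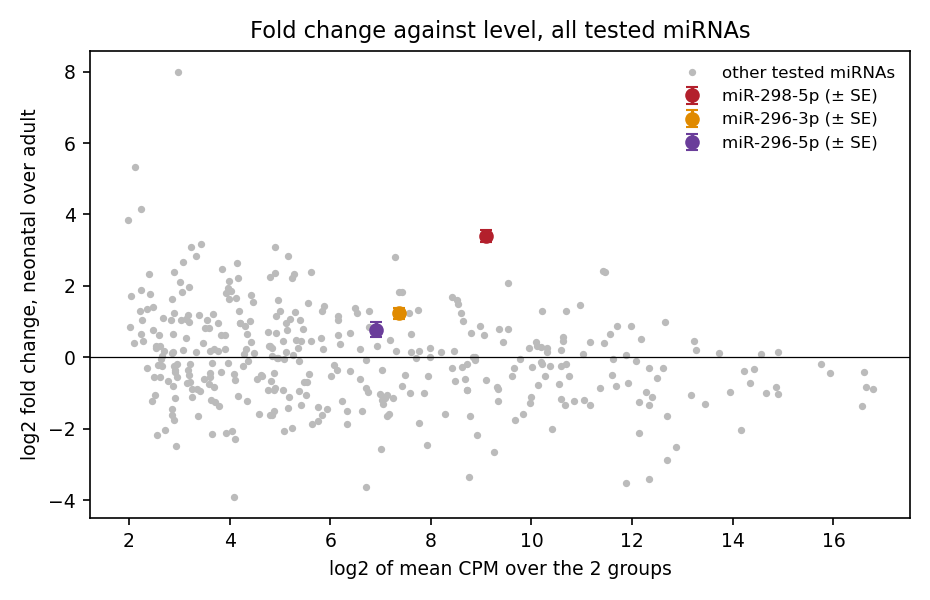
log2 fold change (neonatal over adult) against the log2 of mean CPM for the 375 tested miRNAs, with the members in colour and their SE as bars. miR-298-5p, at 3.39, stands above the other miRNAs of like or higher level, and both arms of miR-296 (1.23 and 0.77) lie within the cloud.

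The members also differed in how much they varied between libraries of a group. The coefficient of variation was 7.09% for miR-298-5p, 5.62% for miR-296-3p and 15.6% for miR-296-5p in neonatal libraries, where the median over all tested miRNAs was 20.3%. Counting error alone would give 2.07%, 4.30% and 5.44% for them in that order. In adult libraries, with fewer reads of each, the coefficients were 16.8% for miR-298-5p, 13.0% for miR-296-3p and 24.3% for miR-296-5p, and the median over all tested was 22.9%. Counting error alone would give 8.40% to 8.78% there.

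Within neonatal libraries the order of levels was miR-298-5p, miR-296-3p and miR-296-5p, with no overlap between neighbours in that order. In adult libraries the ranges of all 3 overlapped, so no order can be given. By mean level among the 375 tested, miR-298-5p had rank 74 in neonatal and 159 in adult libraries, miR-296-3p rank 124 and 157, and miR-296-5p rank 137 and 161. Ligation of adapters in such kits depends on the ends of each miRNA, so levels of different miRNAs in 1 library are approximate. A change of their ratio between libraries is not touched by a constant preference of this kind.

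That ratio was therefore taken within each library, where scaling between libraries drops out. miR-298-5p had 2.91, 2.50, 2.66 and 2.39 times the counts of both miR-296 arms together in neonatal libraries 1 to 4, against 0.499, 0.515, 0.552 and 0.461 times in adult libraries 1 to 4. The ratio was higher in every neonatal library than in any adult one. Its side of 1 depends on summing both arms of miR-296 and on ligation, and is not an order of the hairpins. On the log2 scale the ratio was 1.38 ± 0.12 in neonatal and -0.98 ± 0.11 in adult libraries (SD, n = 4 each), a difference of 2.37 ± 0.08 (SE), or 5.16-fold. Leaving out any library kept this difference between 2.31 and 2.41.

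The arms of Mir296 showed no such separation. The ratio of miR-296-5p to miR-296-3p counts was 0.531, 0.678, 0.660 and 0.732 in neonatal libraries 1 to 4, against 1.35, 0.626, 1.00 and 0.732 in adult libraries 1 to 4. The neonatal libraries all had more 3p than 5p, adult libraries 2 and 4 did too, adult library 3 had equal numbers, and adult library 1 had more 5p. The log2 ratio was -0.63 ± 0.20 in neonatal and -0.17 ± 0.49 in adult libraries (SD, n = 4 each), and the groups overlapped. The difference of -0.46 ± 0.27 (SE) went to -0.26 without adult library 1. Over the 79 hairpins with both arms tested and 1 precursor each, the median absolute difference was 0.59, and Mir296 had rank 51 from the largest.

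The other arm of Mir298, miR-298-3p, is no member and fell below the count filter. Its sequence is printed because it is the partner of miR-298-5p in the hairpin, with the seed in capitals.
miR-298-3p: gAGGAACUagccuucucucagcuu
It had 7, 10, 6 and 6 counts in neonatal libraries 1 to 4, against 3, 1, 1 and 0 counts in adult libraries 1 to 4. Scaled to depth the groups overlapped, at 2.15 to 3.81 CPM in neonatal libraries and 0 to 2.91 CPM in adult ones. The adult counts are at or under the 3 counts that a count of 0 allows, so no fold is given. Nearly all reads of this hairpin came from its 5p arm in both groups.

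**Figure D3:**
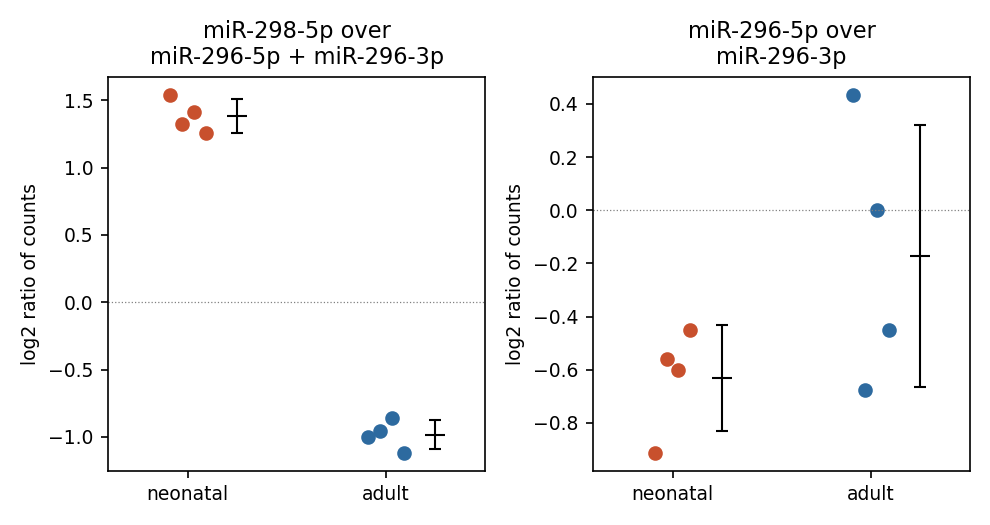
log2 ratio of counts within each library, for miR-298-5p over the sum of both miR-296 arms (left) and for miR-296-5p over miR-296-3p (right), with mean ± SD of 4 libraries. The left ratio is higher in all neonatal than in any adult library, and in the right panel the groups overlap.

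Neighbouring hairpins that may come from 1 transcript gave a background for such unequal change. Among hairpins on 1 strand with at most 10 kb between them, each represented by its most abundant tested miRNA with 1 precursor, there were 46 neighbouring pairs. Their fold changes differed by a median of 1.02 on the log2 scale, and 33 of the 46 had the same sign on both sides. miR-298-5p and miR-296-3p differed by 2.16, rank 6 of 46. The largest difference was 2.54, between miR-125a-5p and let-7e-5p. The other pairs above Mir296 and Mir298 were miR-29a-3p with miR-29b-1-5p, miR-141-3p with miR-200c-3p, miR-500-3p with miR-501-3p and miR-96-5p with miR-183-5p. Of these, miR-141-3p was scarce, at 2.49 ± 2.25 CPM in neonatal libraries and 10.7 ± 5.65 CPM in adult libraries. The rule of 1 precursor can also leave out the main arm of a hairpin, so the ranks are approximate. Unequal change of neighbouring hairpins was thus also seen elsewhere in these libraries.

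**Figure D4:**
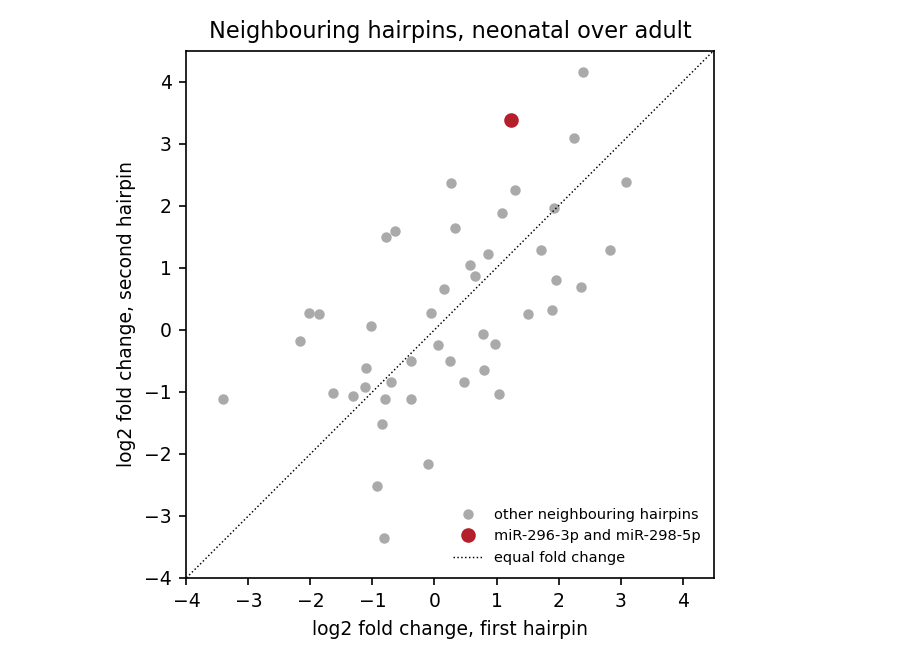
log2 fold change (neonatal over adult) of the 2 members of each of 46 neighbouring hairpin pairs, in chromosome order, with the line of equal change dotted. miR-296-3p at 1.23 and miR-298-5p at 3.39 lie in the upper right, off the line by 2.16.

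Farther along chromosome 2, within 20 Mb of Mir298, RefSeq places 2 other tested miRNAs. miR-3474, 15.6 Mb away, stood at 37.5 ± 4.08 CPM in neonatal libraries and 23.3 ± 2.25 CPM in adult libraries (log2 fold change 0.69 ± 0.20, edgeR's adjusted p = 0.00755). miR-499-5p, a muscle miRNA 18.6 Mb away, stood at 7.05 ± 3.44 and 4.10 ± 2.75 CPM in neonatal and adult libraries (0.76 ± 0.51, edgeR's adjusted p = 0.206).

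The profile over the 8 libraries most like that of each member was sought by the root mean square difference of mean-centred log2 CPM, a distance that takes in the age difference. For miR-298-5p the nearest was miR-351-5p of an X-linked cluster, at a distance of 0.36 where the median over tested miRNAs was 1.76. It had 275 ± 28.4 CPM in neonatal libraries and 39.2 ± 14.5 CPM in adult libraries. miR-5134-3p (0.38), miR-212-5p (0.42), miR-301b-3p (0.45) and miR-505-5p (0.48) came next, and of these miR-212-5p was the most abundant, at 63.4 ± 6.51 CPM in neonatal libraries and 8.45 ± 3.06 CPM in adult libraries. In the adult libraries miR-301b-3p was never read and miR-5134-3p had at most 1 count, so their distances rest on the prior count of 2 that bounds log2 CPM near 0, and their nearness is not interpretable. miR-505-5p, with 1 to 9 adult counts, is close to this limit too. For miR-296-3p the nearest was miR-181b-5p, of a family that tunes T cell receptor signalling, at a distance of 0.11, with 2344 ± 234 CPM in neonatal libraries and 946 ± 69.6 CPM in adult libraries. miR-3064-5p (0.14), miR-100-5p, miR-345-3p (both 0.16) and miR-128-3p (0.19) followed.

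For miR-296-5p the nearest was miR-181a-1-3p at 0.12, then miR-1194 (0.15), miR-149-5p (0.19), miR-674-3p and miR-106b-3p (both 0.20). The arms of Mir296 were not among each other's nearest. miR-296-5p had rank 44 from miR-296-3p, at a distance of 0.40, and miR-298-5p rank 270, at 1.09, beyond the median of 0.80. From miR-298-5p, miR-296-3p had rank 52 and miR-296-5p rank 93.

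Other imprinted domains of the mouse also hold miRNAs, and the tested ones were called in both directions. Of the Dlk1-Dio3 cluster on chromosome 12, expressed from the maternal chromosome, 100 arms were in the table and 10 had enough counts to test. Of these 10, 9 were called higher and none lower, but 8 of the 10 had fewer than 10 counts in at least 1 adult library and passed the filter mainly through the neonatal libraries. The direction of such miRNAs is partly set by the filter, so the count is not read as a direction of the cluster. Its member with the smallest p, miR-412-5p, stood at 14.6 ± 2.90 CPM in neonatal libraries and 3.66 ± 1.97 CPM (2 to 9 counts) in adult libraries. Of the miR-297, miR-466, miR-467 and miR-669 names of the Sfmbt2 array, 80 were in the table, 29 were tested, 26 were lower and none higher, though 18 were lower and 1 higher when scaled by library totals. Here 7 of the 29 had fewer than 10 counts in at least 1 neonatal library, so the filter bears on this count as well. Names of this array may also share reads, so the 29 are not all separate observations. miR-466a-3p and miR-466e-3p, for example, had the same adult level (7.76 ± 0.63 CPM). miR-467a-5p stood at 455 ± 86.6 CPM in neonatal libraries and 1367 ± 127.1 CPM in adult libraries (-1.58 ± 0.16, edgeR's adjusted p = 3.69e-06). Over all 375 tested, 29.1% were higher and 34.1% lower.

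miR-335-5p of the Mest gene, at 4.90 ± 2.55 CPM in neonatal libraries and 3.20 ± 2.70 CPM in adult libraries, did not pass (0.86 ± 0.60, edgeR's adjusted p = 0.228), but was called higher with library totals. miR-483 of Igf2 fell below the filter, and neither arm of miR-675 of H19 had a count in any library. miR-134-5p and miR-470-5p, reported with miR-296 to act on pluripotency mRNAs of mouse embryonic stem cells, had at most 1 count in any library.

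The tested miRNAs of a list for other cell types, liver among them, were higher in the neonatal libraries too. Of 15 listed erythroid, myeloid, endothelial, stromal and liver miRNAs, 9 were tested, 8 of them with at least 10 counts in every library. Neither myeloid miRNA was tested. All 9 were called higher under TMM, RLE and library total scaling alike. Of all 375 tested, 109 (29.1%) were higher under TMM, 123 under RLE and 186 under library totals. Without the count filter, 10 of the 15 were called higher, against 162 of 1025 tested, and 14 of the 15 were above 0. Among the 9, miR-486a-5p and miR-486b-5p had nearly equal levels (257 ± 103 and 267 ± 108 CPM in neonatal libraries). They may share reads, so the 9 are not all separate observations. The summed level of the 15 adds both of them. It was 2652, 1899, 2387 and 1336 CPM in neonatal libraries 1 to 4, against 753, 535, 522 and 534 CPM in adult libraries 1 to 4. The liver miRNA miR-122-5p alone made up 1591, 1119, 1346 and 745 CPM of the neonatal sums, in that order. In the adult sums it made up 390, 245, 262 and 245 CPM. None of the 15 was at 0 in every library. The defining markers were the liver miRNA miR-122-5p (1200 ± 360 CPM in neonatal libraries and 286 ± 70.4 CPM in adult libraries), the red cell miRNA miR-451a (45.9 ± 6.84 and 23.5 ± 4.52 CPM in neonatal and adult libraries), the endothelial miR-126a-3p (130 ± 15.6 and 54.5 ± 13.4 CPM, in that order) and the myeloid miR-223-3p, with at most 20 counts in a library. In neonatal libraries 1 to 4 miR-298-5p stood at 973, 984, 1097 and 932 CPM. Library 4 had the lowest value of both this and the sum, but library 1 had the highest sum and library 3 the highest miR-298-5p. The part of such cells in the levels of the members was not tested. Of the 5 lymphocyte miRNAs, 4 were called lower in the neonatal libraries, against 34.1% of all 375 tested. With RLE scaling 4 were lower and 1 higher, against 118 lower and 123 higher of the 375. With library totals 2 were lower and 1 higher, against 68 lower and 186 higher of the 375.

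Base composition moved with the age difference across miRNAs. Of the 314 tested miRNAs with a mature sequence in the RefSeq table, the median log2 fold change was -0.52 in the lowest of 5 groups by G and C (23.8% to 40.9%) and 0.25 in the highest (60.0% to 73.9%), which held all 3 members. Of the 20 tested miRNAs with at least 65% G and C, 12 had a fold change above 0, their median was 0.13, and their range ran from -0.87 to the 3.39 of miR-298-5p. With an offset that takes out the relation to G and C in each library, the log2 fold change was 3.02 ± 0.15 for miR-298-5p, 0.83 ± 0.18 for miR-296-3p and 0.43 ± 0.19 for miR-296-5p. Under this offset 2 of the 3 members were past the threshold as higher, against 109 of all 375 tested, and miR-296-5p was not. As above, nothing is read from this count. Whether base composition has a part in the members' levels was not tested further.

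**Figure D5:**
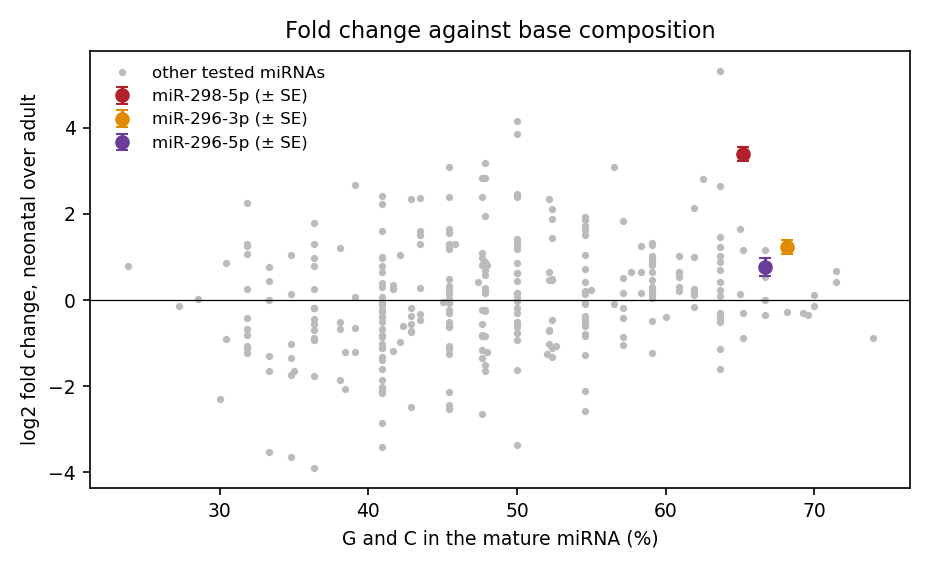
log2 fold change (neonatal over adult) against the percentage of G and C in the mature sequence for 314 tested miRNAs, with the members in colour and their SE as bars. All 3 members lie at the G and C rich end (65.2% to 68.2%), with miR-298-5p at 3.39 above the others with at least 65%.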

How the data were processed

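The values, as deposited by the authors, were unnormalized estimated counts, 1 for each mature miRNA on each precursor. The genome build was mm10, per the submitters' processing notes. Which aligner, counter and miRNA release were used is not given in the sources used here. Whole numbers (within 0.001) made up 71.4% of the non-zero values. Estimated counts were summed over precursors and rounded. Members and lists were chosen with earlier results of these data known. miRNAs were kept by filterByExpr (minimum count 10, minimum total 15) and fitted in edgeR 4.0.16 (R 4.3.3) with its quasi-likelihood test, TMM scaling and age as the single term. The p-values were adjusted over all 375 by Benjamini-Hochberg at 0.05, and no p is given for the members. The fit was tested on simulated data. Each SE was the fold change divided by the root of its F value, and ratios of counts used 0.5 added to each. Named besides the members were the hairpins' other arms, the 5 nearest profiles of each member, tested miRNAs within 20 Mb, the smallest p in each imprinted domain, and listed markers.

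The labels number libraries 1 to 4 in both groups without saying what a number marks. Deviations from group means correlated at r = 0.256 to 0.415 across the 375 miRNAs in the 4 same-numbered pairs. Unlike-numbered libraries reached 0.482 (neonatal 4 with adult 2), so this check does not settle whether the numbers mark pairs. The main fit did not use the numbers, and a replicate block was fitted only as an alternative. Alternatives were RLE scaling, library totals, 2 other filters, DESeq2 1.42.0, limma-voom (limma 3.58.1), leaving out the 10 most abundant miRNAs or each library, a replicate block and an offset for G and C content. Counting errors are those of reads; without molecular identifiers, reads are not independent molecules.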

Additional observations from a re-analysis of the deposited data

Results flagged for a closer look

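In the neonatal group, miR-296-5p in library 1 stood apart from the other 3 libraries, at 116 CPM against 159, 164 and 165 CPM. The gap to the nearest library was 0.882 of the group's whole range, above Dixon's critical value for 4 samples. Of 10 groups of values examined in this way this was the only one past that value, and chance puts about 5% of groups past it. Without that library the log2 fold change of miR-296-5p was 0.92 ± 0.20 (SE), against 0.77 ± 0.21 with it. In the same library miR-296-3p (218 CPM) and miR-298-5p (973 CPM) were not set apart from the others.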

How the results depend on the processing

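All 3 members stayed above 0 in each of their 18 alternatives. Library totals, which raised the median fold change of all miRNAs by 0.63, gave log2 fold changes of 4.03 for miR-298-5p, 1.87 for miR-296-3p and 1.40 for miR-296-5p. The offset for G and C content gave 3.02, 0.83 and 0.43 in that order, and 3.03, 0.85 and 0.41 when a replicate block was added, and miR-296-5p lost its place past the threshold in both. With the replicate block alone they were 3.40, 1.24 and 0.79, and 265 of 375 miRNAs changed in place of 237, with no other call on the members altered. Leaving out 1 library gave 3.36 to 3.55 for miR-298-5p, 1.12 to 1.34 for miR-296-3p and 0.70 to 0.92 for miR-296-5p. The number of changed miRNAs ranged from 213 to 287 over all alternatives, and with library totals 186 were higher and 68 lower (109 and 128 with TMM), so 73.2% in place of 46.0% of calls were higher. The ratio of miR-298-5p to miR-296 moved by less than the spread between replicates in each of its 11 alternatives. Changed miRNAs of other imprinted domains numbered 26 to 41 (35 of 40 tested in the report's fit), and those of other cells 8 to 10 (9 of 9). The number tested changed with the filter. At 10 CPM or more in 4 libraries, 26 of 28 and 8 of 8 changed, against 213 of 312 over all tested. Without a filter, 41 of 109 and 10 of 15 changed, against 287 of 1025. The causes of these shifts were not tested. Depth limits miR-298-3p, which had at most 10 counts in a library.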
